A study of Mus musculus with 8 samples.

Results

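Cholesterol and fatty acid synthesis was examined through 30 genes in the RNA-sequencing of ID8 IP2, a mouse ovarian surface epithelial cancer line passed through mice. The genes were taken by symbol from the 23284 listed in each of the 8 deposited count tables. They comprise 7 genes of the mevalonate arm, 9 genes between squalene and cholesterol, 5 regulators of the pathway, the sterol carrier Stard4 and 8 genes of fatty acid synthesis, elongation and desaturation. Of these 30 genes, 29 passed the filter on low counts. The exception, Hmgcs1, which makes the precursor of mevalonate, had 0 reads in all 8 libraries, and the cause of that was not tested. The question was whether transcripts of these genes differed when Notch3 signaling was switched on.

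The libraries formed 4 matched sets, each with 1 Control and 1 Notch3IC line, so n = 4 in each group. Each set came from its own lentiviral infection of ID8 IP2 cells. Notch3IC lines carried an HA-tagged Notch3 intracellular domain with an IRES and GFP in the pCCL vector, and Control lines carried the empty vector. The domain drives Notch targets without ligand, and lines of both groups also carried luciferase and mCherry. Mycoplasma was probably present in Control and Notch3IC cultures alike, going by a later test that the study's methods mention. Library totals ranged from 15524262 counts in Notch3IC of Set 2 to 28208072 in Control of Set 4.

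The groups were checked on Notch3 and its targets before the lipid genes were read. Here and below, counts are normalized for library size and composition, and 4 values in a row are Sets 1 to 4. Notch3 was at 38.6, 40.6, 70.8 and 42.0 in Control and 4319, 467, 9215 and 5839 in Notch3IC. Every Notch3IC library lay above every Control library, but Set 2 had the lowest level of the 4 Notch3IC libraries. The fitted log2 fold change was 6.69 (SE 0.88, adjusted p = 0.0169), and the call was lost when Set 3 or Set 4 was left out, with adjusted p of 0.215 and 0.221. Reads of the inserted domain and of the endogenous gene cannot be told apart in these counts. The Notch targets Hey1 and Nrarp were called higher with log2 fold changes of 7.35 and 7.34 (SE 0.99 and 1.02, both adjusted p = 0.0169), and these calls too were lost without Set 3 or Set 4. In those fits 1 and 0 of all genes were called, and the log2 fold change of Notch3 was still 6.45 and 6.54. Heyl, a further target, had 0 to 2 reads in the Control libraries and 147 to 7460 in Notch3IC.

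Cells make cholesterol from acetyl-CoA through mevalonate, isoprenoids and squalene, and build saturated fatty acids from the same acetyl-CoA with Acly, Acaca and Fasn before elongases and desaturases modify them. Both branches are controlled by the SREBP transcription factors, encoded by Srebf1 and Srebf2. When sterols are scarce, Scap escorts SREBPs from the endoplasmic reticulum to the Golgi, where they are cleaved and released to the nucleus. Insig1 and Insig2 hold Scap back when sterols are plentiful. SREBPs bind sterol regulatory elements, often together with the CCAAT-binding factor NF-Y, whereas the Notch intracellular domain acts through the DNA-binding protein RBPJ.

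The sequences just upstream of 4 of the genes are given because the genes carry the comparisons that follow. Srebf2 encodes the SREBP chiefly tied to sterol genes. Among the tested genes with a promoter at hand, Nsdhl is the one with a match to the RBPJ letters. Fads2 had the lowest adjusted p between sets, and Elovl6 was the gene of the group whose Control and Notch3IC libraries did not overlap in the normalization used. Each is the 250 bases before the RefSeq transcription start on GRCm38.p6, written 5' to 3' on the gene's strand, with motif matches in capitals. Srebf2 lies at chr15:82147019-82147268 on the plus strand, Nsdhl at chrX:72918271-72918520 on the plus strand, Fads2 at chr19:10101504-10101753 on the minus strand and Elovl6 at chr3:129532136-129532385 on the plus strand.
Srebf2: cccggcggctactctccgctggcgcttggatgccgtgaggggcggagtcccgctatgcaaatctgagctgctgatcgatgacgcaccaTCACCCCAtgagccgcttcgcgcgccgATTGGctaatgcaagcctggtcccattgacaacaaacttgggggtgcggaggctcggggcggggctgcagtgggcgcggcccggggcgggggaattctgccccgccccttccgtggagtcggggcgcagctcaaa
Nsdhl: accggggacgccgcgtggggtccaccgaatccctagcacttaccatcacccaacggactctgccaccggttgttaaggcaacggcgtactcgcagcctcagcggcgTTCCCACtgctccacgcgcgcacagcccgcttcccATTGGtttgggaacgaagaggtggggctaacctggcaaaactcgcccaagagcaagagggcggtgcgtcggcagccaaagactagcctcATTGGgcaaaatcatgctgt
Fads2: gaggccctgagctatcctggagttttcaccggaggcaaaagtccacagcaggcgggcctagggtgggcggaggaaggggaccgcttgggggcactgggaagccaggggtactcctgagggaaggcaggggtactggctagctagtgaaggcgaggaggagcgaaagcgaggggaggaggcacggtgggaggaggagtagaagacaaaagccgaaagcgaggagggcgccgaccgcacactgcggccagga
Elovl6: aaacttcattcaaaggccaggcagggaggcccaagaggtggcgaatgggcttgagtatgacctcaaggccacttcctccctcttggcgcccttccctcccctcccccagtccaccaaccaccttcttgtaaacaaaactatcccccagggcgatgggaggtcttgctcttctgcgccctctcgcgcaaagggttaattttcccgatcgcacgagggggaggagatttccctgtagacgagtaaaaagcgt
The letters searched on both strands were TCACNCCA for a sterol regulatory element, CCAAT for the NF-Y box and GTGGGAA for RBPJ, and none of these contains another. Promoters were at hand for 23 of the 30 genes, 31 promoters in all. The sterol element letters stood before Srebf2 and Hmgcs1 among the 23 genes and in 3.67% of all 32851 RefSeq promoters. In Srebf2 they begin 162 bases before the start. CCAAT stood before 17 of the 23 genes and in 18 of their 31 promoters, against 33.8% of all promoters. The RBPJ letters stood before Nsdhl and Hmgcs1 and in 5.42% of all promoters. In the Nsdhl sequence the match reads on the opposite strand, begins 144 bases before the start and lies upstream of a pair of CCAAT matches that also read on the opposite strand. The Fads2 and Elovl6 sequences held no match to these letters. For Fads2, unlike the other 3, no GENCODE M21 start of the gene was found near or after the RefSeq start in the sequence at hand. A match is a description of the letters and not of binding.

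No gene of the group was called higher or lower in Notch3IC. The study's thresholds were kept for a call, an adjusted p under 0.1 together with a fitted log2 change of 1 or more in size, and 3.40% of the 12430 genes tested met them as higher and 0.740% as lower. Without the limit on fold, 0 of the 29 genes passed, against 6.69% of all genes in either direction and 1.69% as lower. At an unadjusted p under 0.05 there was 1, Elovl6, against 18.4% of all genes. DESeq2 also called 0 and had 1 at an unadjusted p under 0.05. Control and Notch3IC libraries overlapped for 28 of the 29 genes, the exception again being Elovl6, whereas 10.8% of all genes did not overlap. In these bulk libraries a change in the share of cells and a change in RNA per cell cannot be told apart.

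Small differences leaned one way. The fitted log2 fold change was below 0 for 25 of the 29 genes, against 51.6% of all genes, and their median was -0.15 against -0.0095 for all genes. The values ran from -0.36 for Srebf2 to 0.32 for Elovl6, with SEs of 0.10 to 0.44. Without the matched pair of Set 1, 2, 3 or 4, the values below 0 numbered 23, 24, 21 and 22 of 29, with medians of -0.11, -0.24, -0.078 and -0.11. Leaving out a single library unbalances the sets, whose levels differed. Without the Notch3IC library of Set 1 alone, 14 of 29 values were below 0 and the median was 0.0078, and without that of Set 2 alone, 26 were and the median was -0.31.

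Comparing each Notch3IC line with the Control line of its own set narrowed the errors. In a fit with set as a block, none of the 29 genes passed with the limit on fold, against 5.19% of all genes as higher and 2.53% as lower. With no limit on fold, an added setting chosen after the data were seen, 8 genes were lower and 2 were higher, against 12.1% and 14.9% of all genes. The 8 lower genes were Fads2, Srebf2, Scd1, Scap, Srebf1, Insig2, Ebp and Lss, and the 2 higher genes were Elovl6 and Pmvk. These calls were lost without any one of Sets 1, 3 and 4. Leaving out one of these gave 0 genes of the group, while all-gene shares also fell, to at most 1.28% higher and 0.541% lower. Leaving out Set 2 gave 18 lower and 2 higher genes, against 21.8% and 23.4% of all genes.

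**Figure D1:**
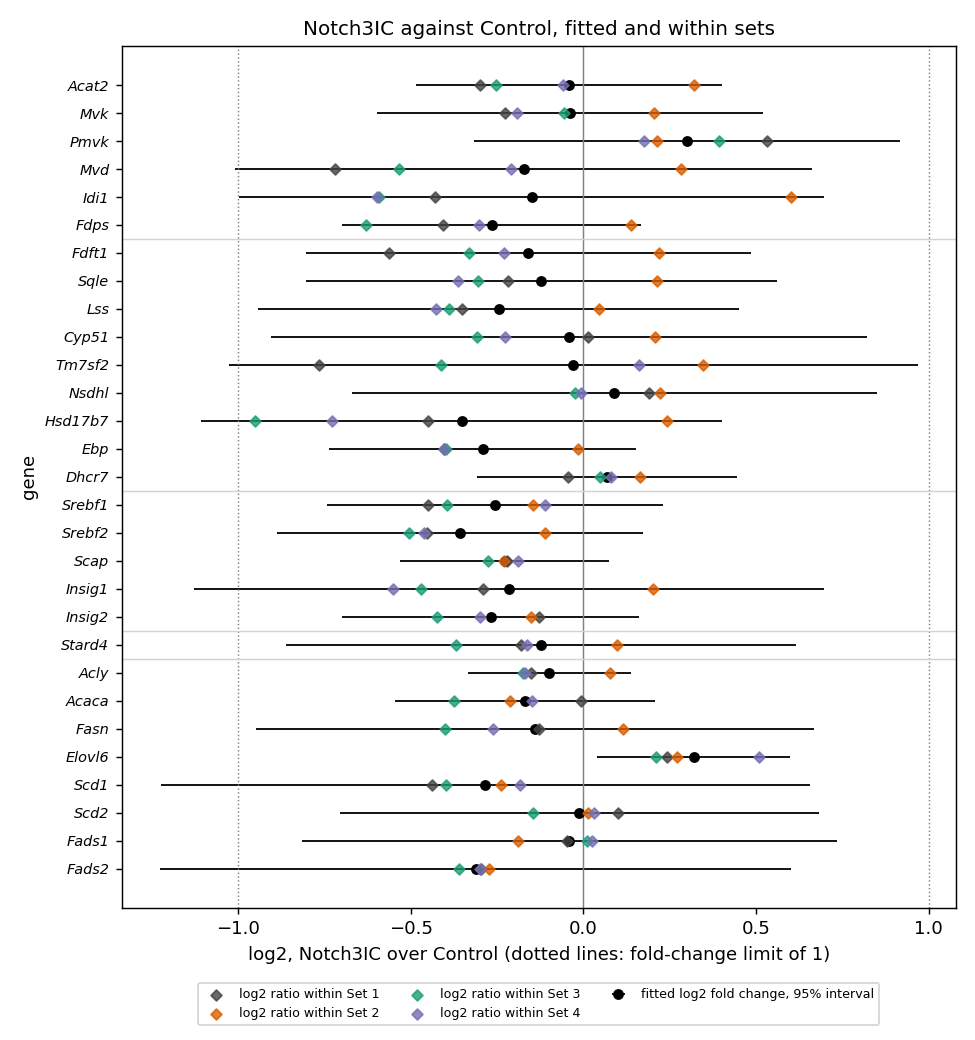
Log2 fold change of Notch3IC over Control for the 29 tested genes, grouped by role. Black points are fitted values over the 8 libraries with 95% intervals, colored diamonds are the log2 ratios within Sets 1 to 4, and dotted lines mark the fold limit of 1. Fitted values lie between -0.36 and 0.32, inside the limit, and the Set 2 diamonds of the sterol enzymes lie mostly to the right of 0.

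The regulators were the role with the most even direction. All 5 had fitted values below 0, against 51.6% of all genes, with a median of -0.26. With the set block and no fold limit, 4 of them passed as lower, against 12.1% of all genes. These 4 too were lost without any one of Sets 1, 3 and 4. Srebf2, the SREBP chiefly tied to cholesterol synthesis, was at 6033, 9882, 8711 and 8709.6 in Control and 4405, 9153, 6135 and 6327 in Notch3IC. Each Notch3IC line was below its matched Control, but the groups overlapped, since the Control of Set 1 was lower than 3 of the Notch3IC lines and the Notch3IC line of Set 2 was higher than 3 of the Control lines. Its fold change was -0.36 (SE 0.23, 95% interval -0.89 to 0.17, adjusted p = 0.469), and with the block it was -0.38 (SE 0.082, adjusted p = 0.0392). Srebf1, which encodes the SREBP chiefly tied to fatty acid genes, was at 3684, 5837, 4948 and 4430.1 in Control and 2697, 5273, 3761 and 4104 in Notch3IC. It too was lower in all 4 sets, with log2 ratios of -0.45, -0.15, -0.40 and -0.11, and had an adjusted p of 0.589, and of 0.0670 with the block.

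Scap, the SREBP escort, was at 2510.1, 2332, 1940.0 and 1927 in Control and 2155, 1989, 1603 and 1689.5 in Notch3IC. The 4 within-set log2 ratios lay close together at -0.22, -0.23, -0.28 and -0.19, with an adjusted p of 0.411, and of 0.0427 with the block. Part of this transcript, 13.2% of its exon bases on GENCODE M21, overlaps 5830462I19Rik on the other strand, and the strandedness of the libraries is not stated. Insig2, which retains Scap, was at 887, 1222, 1595 and 1326 in Control and 810.4, 1099.8, 1189 and 1077 in Notch3IC. Its within-set ratios were -0.13, -0.15, -0.42 and -0.30, and its adjusted p was 0.507, or 0.0703 with the block. Insig1, the paralog that is itself an SREBP target, behaved differently across sets, with ratios of -0.29, 0.20, -0.47 and -0.55 and a fold change of -0.22 (SE 0.40). Its Set 2 ratio was the one above 0.

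In the mevalonate arm, 5 of the 6 tested genes had fitted values below 0 and the median was -0.096. The exception was Pmvk, the kinase that makes mevalonate diphosphate, at 336, 698, 652 and 739 in Control and 486, 809.8, 857 and 834 in Notch3IC. It was higher in each Notch3IC line than in its matched Control, and the groups overlapped through Set 1. The fold change was 0.30 (SE 0.27, 95% interval -0.32 to 0.92, adjusted p = 0.621), and the block gave 0.33 (SE 0.087, adjusted p = 0.0588). Fdps, which makes farnesyl diphosphate, was at 534, 576, 522 and 626 in Control and 402, 634, 337 and 507 in Notch3IC. It was lower in Notch3IC of Sets 1, 3 and 4 and higher in Set 2, with a fold change of -0.27 (SE 0.19, adjusted p = 0.514). The remaining 4, the decarboxylase Mvd, the isomerase Idi1, the thiolase Acat2 and the kinase Mvk, had fitted values of -0.17 to -0.038, adjusted p of at least 0.858 and library values of 93.7 to 977. All of these 4 were lower in Notch3IC of Sets 1, 3 and 4 and higher in Set 2. Counts of Acat2, Idi1 and Fdps are uncertain, since 28.9%, 21.9% and 21.4% of their 100-base windows occur in other GENCODE M21 genes.

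Between squalene and cholesterol, 7 of 9 genes had fitted values below 0, with a median of -0.12. The lowest was Hsd17b7, a ketoreductase that acts in the removal of methyl groups from sterol intermediates, at 471, 568, 389 and 526 in Control and 344, 672, 201 and 317 in Notch3IC. Its ratios of -0.45, 0.24, -0.95 and -0.73 held both the largest fall of the group, in Set 3, and a rise in Set 2, and its fold change of -0.35 had an SE of 0.33 (adjusted p = 0.638). Ebp, the sterol isomerase, was at 479.6, 632, 575 and 728 in Control and 362, 625, 437 and 551 in Notch3IC. Its Set 2 ratio was -0.016 and the others were -0.40, -0.40 and -0.40, with an adjusted p of 0.485, or 0.0815 with the block. Lss, which closes the sterol ring to lanosterol, was at 768, 1475, 1061 and 1418 in Control and 601, 1520.1, 809.7 and 1055 in Notch3IC. It was lower in Sets 1, 3 and 4 and level in Set 2 (ratio 0.044), with a fold change of -0.25 (SE 0.31, adjusted p = 0.736), or an adjusted p of 0.0968 with the block.

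The other 6 genes of this stretch had fitted values of -0.16 to 0.090, adjusted p of at least 0.826 and library values of 45.8 to 5457. They were the squalene synthase Fdft1, the epoxidase Sqle, the demethylase Cyp51, the reductases Tm7sf2 and Dhcr7, and the decarboxylating dehydrogenase Nsdhl. All 6 had a ratio above 0 in Set 2, from 0.17 to 0.35. Fdft1 shares 18.3% of its exon bases with Ctsb on the other strand, and Tm7sf2 shares 12.1% with Vps51 on its own strand, so their counts could hold reads of those genes. Stard4, which carries sterols between membranes, was at 968, 2143, 1651 and 1807 in Control and 854, 2292, 1279 and 1613 in Notch3IC. The pattern over sets was like that of the enzymes, with ratios of -0.18, 0.097, -0.37 and -0.16 and a fold change of -0.12 (SE 0.32, adjusted p = 0.892).

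Among the fatty acid genes, 7 of 8 had fitted values below 0 and the median was -0.12. Elovl6, which extends palmitate to stearate, was the exception, at 2333, 2492, 2346 and 2679 in Control and 2758, 3007, 2711 and 3811 in Notch3IC. The lowest Notch3IC value exceeded the highest Control value, as for 7.08% of all genes, but by so little that the groups overlapped under RLE, upper-quartile or total-count scaling. The fold change was 0.32 (SE 0.12, 95% interval 0.039 to 0.60, adjusted p = 0.208), and 0.31 with the block (SE 0.069, adjusted p = 0.0430). Fads2, the delta-6 desaturase of polyunsaturated fatty acids, was at 4114, 8924, 12377 and 11358 in Control and 3349, 7384, 9648 and 9226 in Notch3IC. Its 4 within-set ratios of -0.30, -0.27, -0.36 and -0.30 were nearly equal although the level in Set 1 was far below that of the other sets. The fold change was accordingly -0.31 with an SE of 0.40 in the fit without sets (adjusted p = 0.745), and -0.31 with an SE of 0.052 in the fit with them (adjusted p = 0.0292).

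Scd1, a stearoyl-CoA desaturase, was at 6599.8, 17259, 16237 and 18222 in Control and 4872, 14639, 12325 and 16050.0 in Notch3IC. It was lower in Notch3IC of each set, with log2 ratios of -0.44, -0.24, -0.40 and -0.18, and had an adjusted p of 0.781, or 0.0401 with the block. Its paralog Scd2 did not follow it within the sets, with ratios of 0.10, 0.012, -0.14 and 0.031 and a fold change of -0.012 (SE 0.30). The pair shares few identical stretches, with 2.58% of the 100-base windows of Scd1 found in other genes and 0.879% of those of Scd2. Fads1, the delta-5 desaturase, had ratios of -0.046, -0.19, 0.010 and 0.026. Fasn, the fatty acid synthase, named here after its values were seen, was at 16528, 9325, 7337 and 8554 in Control and 15103, 10102, 5552 and 7139.7 in Notch3IC. It was lower in 3 of 4 sets, with a fold change of -0.14 (SE 0.35, adjusted p = 0.886), and unlike the desaturases it was highest in Set 1. Acly, which makes cytosolic acetyl-CoA, and Acaca, which makes malonyl-CoA, had fold changes of -0.099 (SE 0.10) and -0.17 (SE 0.17). For Acaca, 23.7% of the 100-base windows occur in other genes, nearly all in Gm5182, so its count is uncertain.

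**Figure D2:**
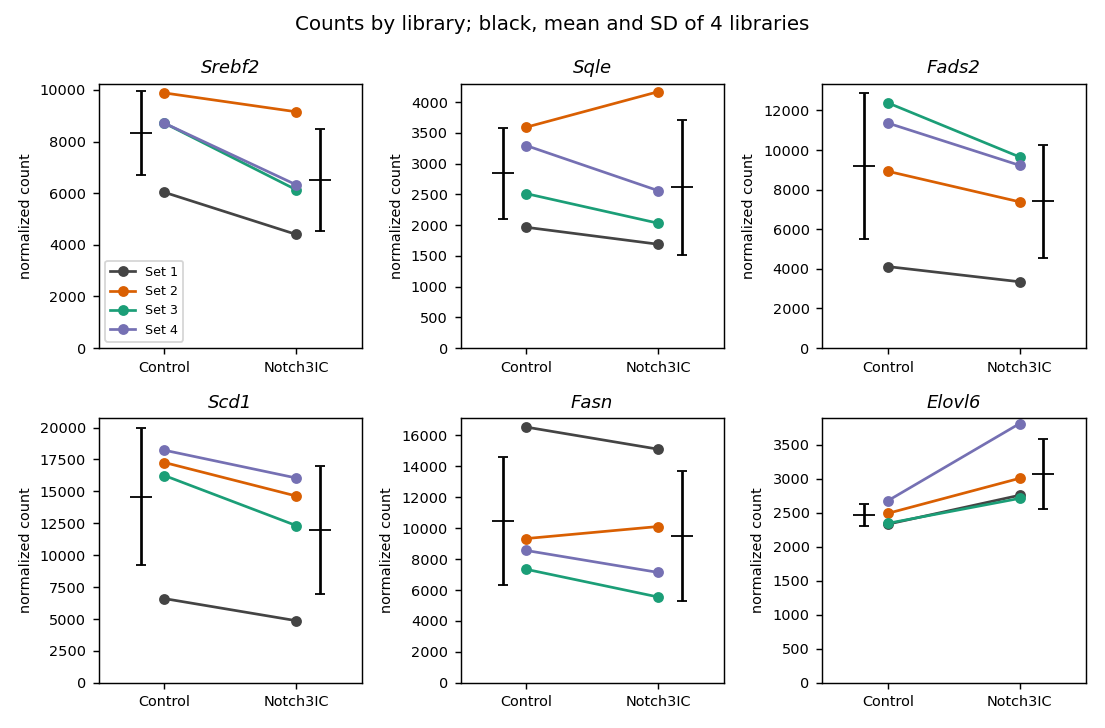
Normalized counts of 6 genes by library on a linear axis from 0, with a colored line joining Control and Notch3IC of each set and a black bar for the mean and SD of 4 libraries. Lines of Srebf2, Fads2 and Scd1 fall in each set, lines of Elovl6 rise in each set, and Sqle rises in Set 2 and falls in the other sets. Set 1 is lowest for Srebf2, Sqle, Fads2 and Scd1 and highest for Fasn.

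The sets did not move together. The median log2 ratio over the 29 genes was -0.23, 0.14, -0.37 and -0.19 in Sets 1 to 4, against -0.013, 0.0083, -0.0075 and 0.0023 for all genes. Within Sets 1, 3 and 4, 24, 25 and 23 of the 29 genes were lower in Notch3IC, against 51.4%, 50.8% and 49.8% of all genes. In Set 2, 9 were lower, against 47.7% of all genes. The sterol enzymes carried much of this. Of the 15 tested enzymes from Acat2 to Dhcr7, 12, 13 and 12 were lower in Notch3IC of Sets 1, 3 and 4, and 1 was lower in Set 2. Their median ratios were -0.35, 0.21, -0.33 and -0.23. The regulators had medians of -0.29, -0.15, -0.42 and -0.30 and the fatty acid genes -0.088, -0.088, -0.27 and -0.16, below 0 in all 4 sets. The change of direction in Set 2 was shared by the 14 proliferation genes, of which 11, 2, 11 and 12 were lower in Notch3IC of Sets 1 to 4, at medians of -0.092, 0.087, -0.094 and -0.12. Set 2 was also the set with the least Notch3, at a log2 ratio of 3.51 against 6.79, 7.01 and 7.10, and the part of either in the result was not tested. With 1 pair of libraries in each set, a difference of Set 2 from the others has no replicate check.

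**Figure D3:**
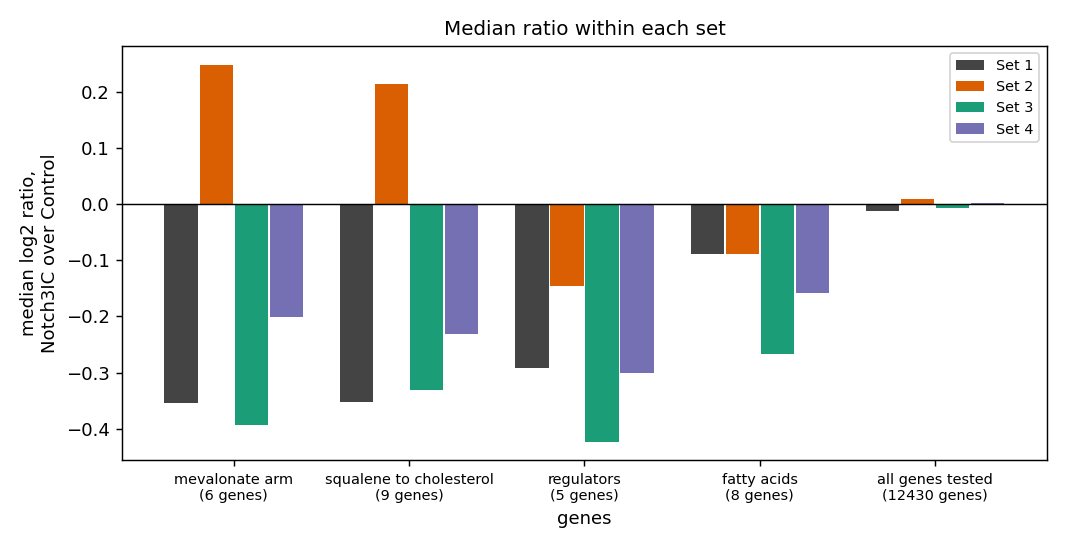
Median log2 ratio of Notch3IC over Control within each of Sets 1 to 4 for 4 roles and for all genes tested; bars start at 0 and carry no error because each set holds 1 pair of libraries. Set 2 bars lie above 0 for the mevalonate arm (0.25) and for squalene to cholesterol (0.21), where the other sets lie below 0.

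More of the genes passed the test between the matched sets than between Control and Notch3IC. Set terms, tested together in the block fit, had an adjusted p under 0.1 for 25 of the 29 genes, against 36.1% of all genes. The lowest values were those of Fads2 (0.00396), Scd1 (0.00500) and Fads1 (0.00608). The 4 genes that did not pass were Acat2 (0.105), Idi1 (0.115), Fdps (0.184) and Acly (0.208). This rested on Set 1. Without it, 0 of 29 genes passed, as did 0.176% of all genes, while 14 of 29 had an unadjusted p under 0.05 against 13.3% of all genes.

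Both libraries of Set 1 lay below the other 6 libraries for 19 of the 29 genes, against 16.5% of all genes. The level of Set 1 as a fraction of the mean of Sets 2 to 4 was 0.378 in Control and 0.383 in Notch3IC for Fads2. That of Scd1 was 0.383 in Control and 0.340 in Notch3IC, and that of Fads1 was 0.454 in Control and 0.452 in Notch3IC. Among the sterol genes, the fraction for Nsdhl was 0.452 in Control and 0.490 in Notch3IC. For Cyp51 it was 0.487 in Control and 0.509 in Notch3IC. The named desaturases and sterol genes were thus low in Set 1 with and without Notch3IC. Fasn and Acaca went the other way, both Set 1 libraries being above the other 6, as for 20.9% of all genes. Fasn of Set 1 was 1.97 in Control and 1.99 in Notch3IC times the mean of the other sets. Set 2 lay above the other 6 libraries for 11 of the 29 genes, against 7.63% of all genes, and below them for 0. Proliferation genes moved with the sets too, since both Set 1 libraries were above the other 6 for 9 of 14 genes, the replication genes Pcna and Mcm2 among them, named after their values were seen, and their part in the set difference was not tested.

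**Figure D4:**
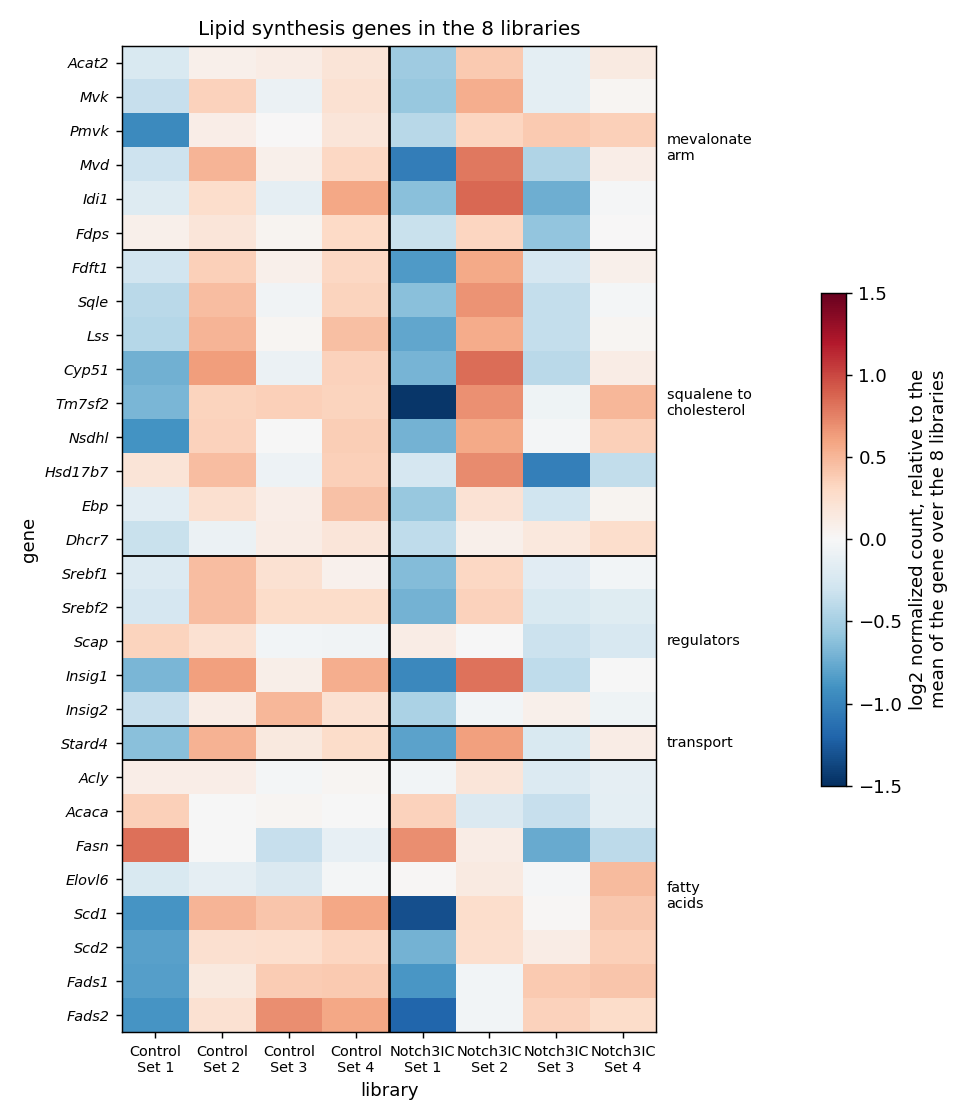
Heat map of the 29 tested genes in the 8 libraries, as log2 normalized count relative to each gene's mean over the libraries, grouped by role. Both Set 1 columns are blue for most sterol genes and desaturases and red for Fasn, and the Notch3IC column of Set 2 is red for most sterol enzymes.

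Levels also differed between genes of the group. Scaled per kilobase of GENCODE M21 exon and to the summed counts of a library (RPKM), the mean level of the tested genes in Control ran from 582 for Scd2 to 1.36 for Tm7sf2. The desaturases Fads1, Scd1 and Fads2 followed Scd2 at 141, 128 and 120. Acly and Fasn stood at 49.5 and 40.9, and Srebf2 and Srebf1 at 49.7 and 36.0. These means pool sets whose levels differed, Control of Set 1 being at 1.97 times the other sets for Fasn and 0.383 for Scd1. The order therefore need not hold within Set 1. The tested sterol enzymes ranged from 32.4 for Cyp51 down through 22.0 for Sqle and 15.2 for Pmvk to 2.13 for Idi1 and 1.36 for Tm7sf2.

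Other lipid genes were read beside the group. Of 14 further synthesis genes, all tested, 1 was called higher and 0 lower, with a median log2 fold change of -0.041. The called gene was Acacb, the acetyl-CoA carboxylase whose malonyl-CoA restrains fatty acid oxidation, at 27.7, 50.1, 101 and 64.2 in Control and 179, 79.1, 319 and 292 in Notch3IC. Its groups overlapped through Set 2, and its log2 fold change was 1.84 (SE 0.50, adjusted p = 0.0935). The call held in 1 of the 8 fits that left out a single library, with adjusted p of 0.0189 to 0.256. With the block the fold change was 1.82 (SE 0.32, adjusted p = 0.0297), and DESeq2 gave an adjusted p of 0.00515. Acss2, which makes acetyl-CoA from acetate, was at 101, 88.3, 135 and 151 in Control and 154, 155, 282 and 258 in Notch3IC. The groups did not overlap, and the fold change of 0.84 (SE 0.27) missed the threshold at an adjusted p of 0.146. With the block it was 0.82 (SE 0.13, adjusted p = 0.0275), below the fold limit. With the block and no fold limit, 3 of the 14 genes were higher and 1 was lower, against 14.9% and 12.1% of all genes.

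Storage and breakdown genes included the few further transcripts with an adjusted p under 0.1 in the fit without the block. Of 10 esterification and storage genes, all tested, 0 were called and 2 were lower under the fold limit. With set as a block and no fold limit, 2 were higher and 2 lower, against 14.9% and 12.1% of all genes. The 2 higher were Lipa (0.51, SE 0.13, adjusted p = 0.0514) and Lpin1 (0.54, SE 0.15, adjusted p = 0.0628). Both were higher in all 4 sets and are named after their values were seen. Pnpla2, the triglyceride lipase, was at 653, 727, 726 and 670.3 in Control and 486, 576, 426 and 435 in Notch3IC. All 4 Notch3IC values were below all 4 Control values, and the fold change was -0.53 (SE 0.12, adjusted p = 0.0488). Soat1, which esterifies cholesterol, was at 5215, 7113, 7141 and 7069 in Control and 3723, 4696, 5127 and 4899.7 in Notch3IC, also without overlap, with a fold change of -0.52 (SE 0.14, adjusted p = 0.0903). Of 14 fatty acid activation and oxidation genes, 0 were called and 1 was lower under the fold limit. That was Cpt1a, which admits fatty acids to mitochondria and is named after its values were seen, at 5773, 4781, 5221 and 4602 in Control and 3987, 3938, 2837 and 3401 in Notch3IC. Its groups did not overlap, and the fold change was -0.53 (SE 0.13, adjusted p = 0.0704). With the block and no fold limit, 1 of these 14 genes was higher and 2 were lower, against 14.9% and 12.1% of all genes. Groups that did not overlap with Notch3IC lower made up 3.75% of all genes. An adjusted p under 0.1 held for Pnpla2, Soat1 and Cpt1a in 4, 2 and 2 of the 8 fits that left out 1 library, with highest values of 0.168, 0.245 and 0.211. With the block the adjusted p of these genes was 0.0297, 0.0121 and 0.0336, at fold changes of -0.54, -0.52 and -0.53. DESeq2 gave adjusted p of 0.000833, 0.0139 and 0.00404.

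Nuclear receptors and transport genes gave no calls in the fit without the block. Pparg, a nuclear receptor of fat storage, was at 172, 105, 99.5 and 91.1 in Control and 272, 122, 282 and 286 in Notch3IC. It was higher in each set, most weakly in Set 2, with a fold change of 1.04 (SE 0.32, adjusted p = 0.125) and a call with the block (adjusted p = 0.0565). Ppara, its relative tied to fatty acid oxidation, had a fold change of 0.60 (SE 0.42) from library values of 14.5 to 54.0. Of 7 tested genes of SREBP processing and lipoprotein uptake, 0 were called, and the largest changes were 0.36 (SE 0.21) for the receptor Lrp1 and 0.25 (SE 0.10) for the lysosomal cholesterol exporter Npc1. Of 5 tested genes of efflux and of the LXR sterol sensors, 0 were called, with -0.60 (SE 0.54) for the efflux pump Abca1 and 0.34 (SE 0.50) for Nr1h3, which encodes an LXR. Abca1 was lower in all 4 sets, and the block gave -0.72 (SE 0.19, adjusted p = 0.0622). Of the 14 proliferation genes, 0 were called and the median was -0.049.

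**Figure D5:**
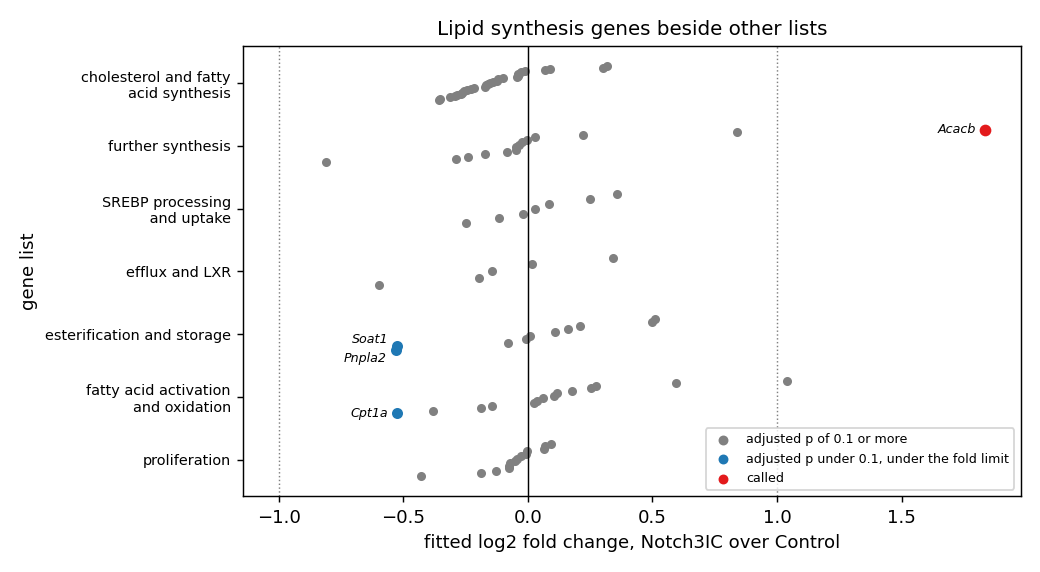
Fitted log2 fold change of Notch3IC over Control for each tested gene of the synthesis group and of 6 other lists, 1 point a gene, spread vertically within a list so that points can be seen. Red marks the called gene Acacb (1.84), blue marks Pnpla2, Soat1 and Cpt1a, which had an adjusted p under 0.1 below the fold limit, and dotted lines mark that limit.

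Cell identity was read from marker genes. Ovarian surface and mesothelial markers, 10 genes led by Upk3b, had summed reads of 26156, 38124, 74063 and 85661 in Control and 7531, 20077, 28654 and 24075 in Notch3IC. Of the 9 tested, 8 had values below 0, against 51.6% of all genes. Called lower in Notch3IC were 2 of them, against 0.740% of all genes. These were Msln (-2.60, SE 0.63, adjusted p = 0.0625) and Upk1b (-2.19, SE 0.56, adjusted p = 0.0762). The calls of Msln and Upk1b held in 4 and 3 of the 8 fits that left out 1 library. With set as a block, 4 were called lower, against 2.53% of all genes. Besides these 2 they were Krt19 (-2.10, SE 0.33, adjusted p = 0.0288) and Upk3b (-1.98, SE 0.35, adjusted p = 0.0319), both named after their values were seen. With no limit on fold, 8 passed as lower, against 12.1% of all genes. Whether these block calls held without a single set was not examined. Within Sets 1 to 4, 8, 8, 7 and 8 of the 9 were lower in Notch3IC, so in Set 2 the markers were mostly lower where most lipid synthesis genes were higher. Of the 9, 1 had both Set 1 libraries below the other 6. Their part in the lipid values was not tested. None of the markers of other cell types that could be tested was called. Leukocyte markers, 6 genes led by Cd68 with Emr1 and Cd3e at 0 in all libraries, summed to 36 to 151 reads, and the 4 endothelial markers, led by Pecam1, to 15 to 45. Adipocyte markers, 6 genes led by Fabp4 with Lep and Retn at 0 in all libraries, summed to 2 to 19 reads, so defining genes of fat cells were near 0. The 3 hepatocyte markers, led by Alb, had summed reads of 2, 1, 391 and 914 in Control and 1, 1, 367 and 641 in Notch3IC, which set Sets 3 and 4 apart in both groups, and their part in the differences between sets was not tested.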

How the data were processed

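RNA from Control and Notch3IC lines of Sets 1 to 4 was sequenced as single-end reads of polyadenylated RNA. For each library the authors deposited a table of raw read counts by gene symbol, as whole numbers with no normalization. The submitters' processing notes name TopHat, Cufflinks, DESeq and mm9, while versions, annotation and strandedness are not given in the sources used here, and no mm9 annotation was used. Of 23284 symbols, 17359 had a count and 12430 passed filterByExpr by condition. Counts were fitted with edgeR 4.0.16 in R 4.3.3 (TMM, robust quasi-likelihood fit and F test), with Benjamini-Hochberg adjustment over the genes tested. Normalized counts rescale each library from its TMM-adjusted total to the average library total. Within-set log2 ratios used a pseudocount of 0.5. Standard errors were the fold change divided by the square root of F.

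The biological coefficient of variation was 26.3% with condition alone and 14.1% with set as a block. The set numbers mark shared infections, and deviations from the group means correlated between matched libraries (Set 1, 0.794, Set 2, 0.408, Set 3, 0.573, Set 4, 0.432), whereas crossed pairs lay between -0.511 and 0.400. Each set is 1 infection, so p-values measure the spread between these lines.

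The members and lists were chosen with earlier results of these data known, and members are not replicates. Values by library were given for members passing with the block, not overlapping, or among the 2 largest changes of their role, and in the 5 other lipid lists called genes and the 2 largest changes were named. Of the Notch genes all were named, and of proliferation and marker lists called genes, the most abundant marker, or genes named after their values were seen. DESeq2 1.42.0, other scalings, filters and thresholds, the block and leaving out each library or set were tried. Scripts were tested on simulated data with 200 changed genes. Lengths, overlaps and shared windows came from GENCODE M21 on GRCm38 and promoters from RefSeq.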

Additional observations from a re-analysis of the deposited data

Results flagged for a closer look

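The highest or lowest library was set against the range of its group in 98 groups of 4 libraries. These were the Control and Notch3IC groups of the 29 tested synthesis genes, of 19 genes of the other lists and of the library totals. In 9 groups it stood apart beyond the critical value of Dixon's test at 95% for 4 samples, where chance gives about 1 in 20, or 4.9 of 98. Of these 9, 7 were Set 1 libraries, and all 5 among the lipid synthesis genes were. The Scd1 count in Control of Set 1 stood at 6599.8, with the other 3 at 16237 to 18222. That of Scd2 in the same library stood at 40283, with the other 3 at 83518 to 88519.8. Tm7sf2 in Control of Set 1 stood at 78.3, with the other 3 at 159 to 162. Pmvk in Notch3IC of Set 1 stood at 486, with the other 3 at 809.8 to 857. Acaca, in contrast, was high in Control of Set 1, where it stood at 1371, with the other 3 at 1064 to 1091. Outside the synthesis genes, Soat1 in Control of Set 1 stood at 5215, with the other 3 at 7069 to 7141. Pparg was high in Control of Set 1, where it stood at 172, with the other 3 at 91.1 to 105. The same gene was low in Notch3IC of Set 2, where it stood at 122, with the other 3 at 272 to 286. Notch3 in Control of Set 3 stood at 70.8, with the other 3 at 38.6 to 42.0.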

How the results depend on the processing

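With the limit on fold, 0 lipid synthesis genes were called under every alternative run. Fold changes of the 29 genes under all other settings, 783 in all, were set against those of the fit without the block. Of these, 700 kept their direction and side of the threshold and 53 changed sign. Another 30 passed the threshold once the block was used with no fold limit, and 0 lost a call, since none was called. Settings that changed only a threshold reused the fold changes of another fit, so part of the 783 are repeats and not new estimates. The sign changed in 14 genes and held in 15. Sizes moved in genes that kept their sign too. Over fits without the block that left out 1 library, Fads2 ran from -0.56 to -0.071 and Scd1 from -0.53 to -0.026. Srebf2 ran from -0.57 to -0.21 and Srebf1 from -0.43 to -0.11 over the same fits. With set as a block, Scd2 turned from -0.012 to 4.20e-05, and all other sign changes came from leaving out a library or set. Over those fits the log2 fold change ran from -0.22 to 0.17 for Scd2, -0.12 to 0.28 for Nsdhl, -0.024 to 0.19 for Dhcr7, -0.45 to 0.17 for Fasn, -0.27 to 0.11 for Mvk, -0.44 to 0.037 for Sqle, -0.41 to 0.17 for Cyp51, -0.28 to 0.26 for Tm7sf2, -0.40 to 0.070 for Stard4, -0.25 to 0.17 for Fads1, -0.20 to 0.099 for Acat2, -0.59 to 0.039 for Idi1, -0.57 to 0.052 for Mvd and -0.43 to 0.034 for Fdft1. With the block as well, Tm7sf2 was 0.028 without Set 1 and Scd2 0.048 without Set 3, and without the block Fads1 was 0.0082 without Set 2. The median of the 29 genes ran from -0.31 to 0.0078 over all settings. The replicate block with no fold limit gave 2 higher and 8 lower genes, and without Set 2 it gave 2 and 18. Notch3 ran from 6.20 to 7.06 over fits without the block that left out a library or set, and lost its call without Set 3 (6.45) or Set 4 (6.54), and with the block without Set 1 (6.29) or Set 3 (6.13). The count of genes that differed between sets was 25, was 22 to 28 in other settings, and was 0 without Set 1. Over all genes, leaving out Set 3 or Set 4 left 1 and 0 calls in all, so these fits say little about the lipid genes. Depth gave at least 41 reads in each library for each tested gene of the group. DESeq2 called 707 higher and 192 lower of 17324 genes, against 423 and 92 of the 12430 genes tested with edgeR after the filter. The gene sets of these counts differ. With the limit on fold, the block changed no call among the lipid synthesis genes.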
